A study of Sus scrofa with 6 samples.

Results

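POSTN, TNC, THBS1, FN1, FBN1, FBLN1, DCN, KERA and TNMD encode matrix proteins other than collagens and 2 markers of tendon. The 9 genes were chosen by symbol with earlier results of these data known. Each symbol matched 1 of the 25322 Ensembl pig gene IDs that the files list. Their mRNA was counted by RNA sequencing in 3 pig (Sus scrofa) tissues, fat, liver and muscle, each from the Berkshire and the Korean native breed, with 1 library per breed and tissue and 6 in all. The groups differ by breed and tissue, and the labels name no treatment. The sources used here do not give age, sex or the number of animals behind a library, and nothing says that the libraries of a breed come from separate animals. A p-value therefore measures only the spread among these libraries. With tissue and breed in the fit, this spread is how far the breed difference varies between tissues. It is not a spread between replicates, since no breed and tissue has any.

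The matrix around cells is a mesh of collagen and of other secreted proteins. Fibronectin (FN1) is laid down as fibrils that cells grip through integrins, and a soluble form is secreted by the liver into plasma. Fibrillin 1 (FBN1) builds microfibrils, the scaffold of elastic fibres, and fibulin 1 (FBLN1) binds to several of these networks. Periostin (POSTN), tenascin C (TNC) and thrombospondin 1 (THBS1) are matricellular proteins, which act on cells more than they carry load and are known to increase in growth, repair and mechanical strain. Decorin (DCN) and keratocan (KERA) are small leucine-rich proteoglycans that bind collagen fibrils. Decorin is abundant in most connective tissue, whereas keratocan is known from cornea and tendon, and tenomodulin (TNMD) is a membrane protein of tendon cells.

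A library held between 5897407 and 7912093 counts on genes. Levels are CPM, counts corrected for library size, scaled with TMM factors, and a count of 0 allows up to 0.293 CPM (Berkshire fat) to 0.691 CPM (Korean native muscle), the value of 3 counts. The tissue labels were met by their markers: summed hepatocyte markers reached 222190 and 254916 CPM in liver and at most 70.2 CPM elsewhere. Summed skeletal muscle markers reached 101601 and 153241 CPM in muscle and at most 121 CPM elsewhere, and summed adipocyte markers reached 3260 and 1796 CPM in fat and at most 269 CPM elsewhere. These were the 9, 7 and 5 markers of 10 on each list that matched an ID, so adipocyte markers such as ADIPOQ and LEP were not read. In bulk tissue, fewer cells of a type and less RNA per cell cannot be told apart.

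**Figure D1:**
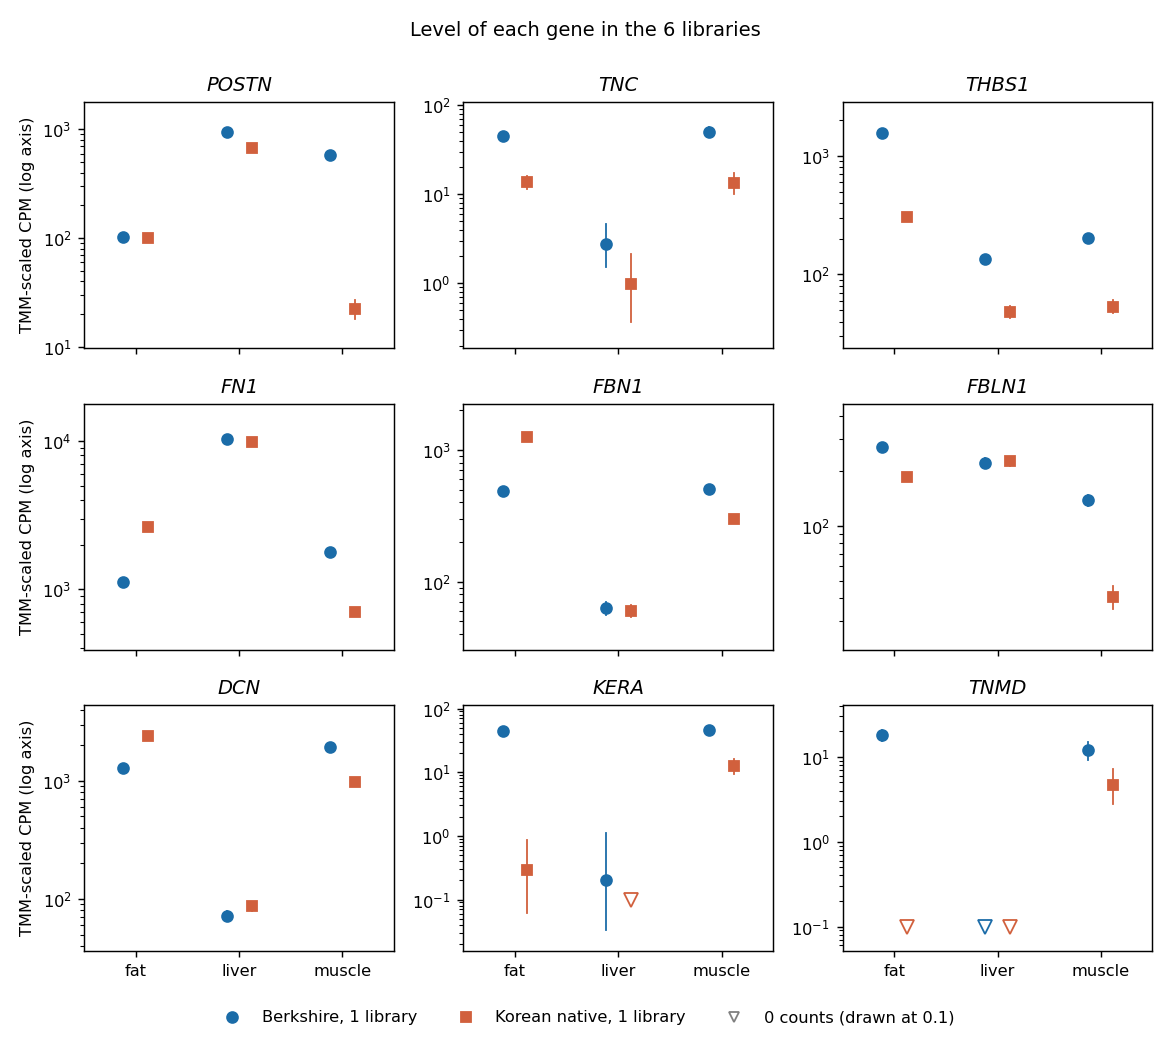
Level of each of the 9 genes in the 6 libraries, as TMM-scaled CPM on a log axis, by tissue. Circles are Berkshire and squares Korean native libraries, 1 library each, vertical lines are exact Poisson intervals of the count (95%, counting error only, lower ends clipped near 0), and open triangles mark 0 counts. FN1 and POSTN were highest in liver, DCN, FBN1, TNC, KERA and TNMD were lowest there or at 0, and TNMD had 0 counts in Korean native fat.

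Which of these genes separate the 3 tissues was asked first. FN1 was higher in liver than in fat and muscle, whereas TNC, FBN1, DCN and KERA were lower in liver than in both. THBS1 was higher in fat than in both other tissues. Between muscle and fat, THBS1 was the one member that changed. In edgeR's quasi-likelihood test with Benjamini-Hochberg adjustment over all genes, 6 of the 9 members changed between liver and fat (1 rose and 5 fell in liver), where 28.7% of the 13810 genes tested changed (15.2% rose and 13.5% fell). Between liver and muscle 7 changed (2 rose and 5 fell in liver), with 36.0% of all genes changing (18.6% rose and 17.4% fell). Between muscle and fat 1 fell in muscle, where 16.4% of all genes changed and 6.43% fell. The median log2 difference of the members was -3.80 for liver against fat, -0.31 for muscle against fat and -2.74 for liver against muscle, and over all genes it was 0.06, -0.05 and -0.01. All 9 members passed the filter on low counts, and the comparisons share libraries.

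Among the structural glycoproteins, FN1 (ENSSSCG00000016174) stood at 10333 CPM in Berkshire and 9827 CPM in Korean native liver. Its level was 1119 and 2645 CPM in fat and 1795 and 699 CPM in muscle in the same breed order. Both liver libraries lay above the other 4, which overlapped between fat and muscle. The log2 difference was 2.41 ± 0.65 (SE) between liver and fat (edgeR adjusted p 0.031) and 3.03 ± 0.67 between liver and muscle (adjusted p 0.012). The first call ended with total-count scaling (log2 1.38, adjusted p 0.12) or without Berkshire fat (1.61, adjusted p 0.16), and the second without Korean native muscle (2.23, adjusted p 0.055).

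FBN1 (ENSSSCG00000004658) went the other way. It had 490 and 1259 CPM in fat, 62.9 and 59.5 CPM in liver and 509 and 300 CPM in muscle, in Berkshire and Korean native libraries. The liver libraries were the lowest pair and close to each other, and the muscle and fat ranges overlapped. The log2 difference of FBN1 was -3.80 ± 0.59 (SE) for liver over fat (edgeR adjusted p 0.0036) and -2.74 ± 0.56 for liver over muscle (adjusted p 0.0086).

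FBLN1 (ENSSSCG00000000010) was the most even of the 9, with a span of 6.72-fold from its lowest to its highest library. It had 272 and 185 CPM in fat, 222 and 226 CPM in liver and 138 and 40.5 CPM in muscle. Fat and liver overlapped, and both muscle libraries lay below them. The log2 difference of liver over muscle was 1.54 ± 0.48 (SE, edgeR adjusted p 0.042), and this call ended without Korean native muscle (0.83, adjusted p 0.20), without Korean native liver (0.95, adjusted p 0.26), with total counts (1.44, adjusted p 0.073) or without the breed term (1.33, adjusted p 0.10). For muscle against fat the value was -1.50 ± 0.47 and did not pass (edgeR adjusted p 0.072), although DESeq2 (adjusted p 0.022) and limma-voom (adjusted p 0.049) called it. In edgeR it also passed with total counts (adjusted p 0.015) or no filter (adjusted p 0.040), and not without the breed term (adjusted p 0.14).

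The 3 matricellular genes each had a tissue order of their own. THBS1 (ENSSSCG00000004789) had 1565 and 304 CPM in fat, 135 and 48.5 CPM in liver and 202 and 53.4 CPM in muscle. Both fat libraries lay above the other 4, and liver and muscle overlapped. The log2 difference was -3.10 ± 0.39 (SE) for liver against fat (edgeR adjusted p 0.0016) and -2.75 ± 0.39 for muscle against fat (adjusted p 0.0049). The second call ended without the breed term (-2.87, adjusted p 0.085).

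TNC (ENSSSCG00000005494) was near its floor in liver. It had 44.9 and 13.7 CPM in fat, 50.1 and 13.4 CPM in muscle, and 2.80 and 0.992 CPM in liver, which are 14 and 6 counts. Fat and muscle held nearly the same pair of levels, with a log2 difference of 0.07 ± 0.30 (SE, edgeR adjusted p 0.89), and liver differed by -3.91 ± 0.37 from fat (adjusted p 4.8e-04) and by -3.98 ± 0.38 from muscle (adjusted p 3.3e-04).

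POSTN (ENSSSCG00000009361) was highest in liver, at 952 and 669 CPM, against 102 and 100.2 CPM in fat. In muscle it had 587 CPM in the Berkshire and 22.1 CPM in the Korean native library. The fat libraries agreed closely, both liver libraries lay above the other 4, and the muscle pair spanned nearly the whole range. Liver against fat gave a log2 value of 2.89 ± 1.03 (SE) that did not pass in edgeR (adjusted p 0.078). DESeq2 called it (2.84, adjusted p 0.012), as did edgeR without a filter (2.85, adjusted p 0.029). It did not pass in limma-voom (2.96, adjusted p 0.070) or in edgeR with total counts (1.88, adjusted p 0.16). The liver against fat value in edgeR was 2.88 without Berkshire muscle and 2.98 without Korean native muscle. Either way it rests on the same fat and liver libraries. Muscle against fat turned from 0.77 (adjusted p 0.67) to -2.17 without Berkshire muscle (adjusted p 0.026) and to 2.41 without Korean native muscle (adjusted p 0.022), so its direction there depended on which muscle library was kept.

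Of the proteoglycans, DCN (ENSSSCG00000000915) had 1275 and 2403 CPM in fat, 1950 and 976 CPM in muscle and 72.1 and 86.5 CPM in liver. Liver was far below, and fat and muscle overlapped. The log2 difference of DCN was -4.53 ± 0.58 (SE) for liver over fat (edgeR adjusted p 0.0017) and -4.22 ± 0.58 for liver over muscle (adjusted p 0.0016).

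KERA (ENSSSCG00000000917) and TNMD (ENSSSCG00000012480) were near 0 or at 0 in liver. KERA had 44.0 and 0.295 CPM in fat (450 and 3 counts) and 45.9 and 12.4 CPM in muscle. In liver it had 1 count in the Berkshire and 0 in the Korean native library. TNMD had 17.9 CPM and 0 counts in fat, 11.9 and 4.60 CPM in muscle, and 0 counts in both liver libraries. For both genes, Berkshire fat stood with the muscle libraries and Korean native fat with liver.

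Summed over both breeds, the KERA level in muscle was 343 times that in liver with a counting interval of 61.2 to 13609, since liver held a single count. TNMD was at least 31.9-fold higher in muscle than in liver, taking 3 counts over the liver libraries as the floor. KERA changed between liver and muscle (edgeR adjusted p 0.0076) and between liver and fat (adjusted p 0.024), but the second call ended without Berkshire fat (log2 -2.70, adjusted p 0.21), without Berkshire liver (adjusted p 0.13) or without the breed term (adjusted p 0.060). TNMD changed between liver and muscle (adjusted p 0.040, and 0.20 in DESeq2, 0.095 without Berkshire liver and 0.094 without the breed term), and liver against fat did not pass (adjusted p 0.073). For TNMD, liver against fat passed in edgeR with total counts (adjusted p 0.027) or no filter (adjusted p 0.018). It did not pass in DESeq2 (adjusted p 0.31) or limma-voom (adjusted p 0.13). Muscle against fat did not pass for KERA (log2 1.80, edgeR adjusted p 0.25) or TNMD (1.11, adjusted p 0.57). Their values were 5.29 and 7.86 without Berkshire fat, and 5.15 and 7.26 without Berkshire muscle. Without Korean native fat they were 0.08 and -0.59, and without Korean native muscle 0.07 and -0.57. The size of this difference, and for TNMD its direction, depended on which library was left out.

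**Figure D2:**
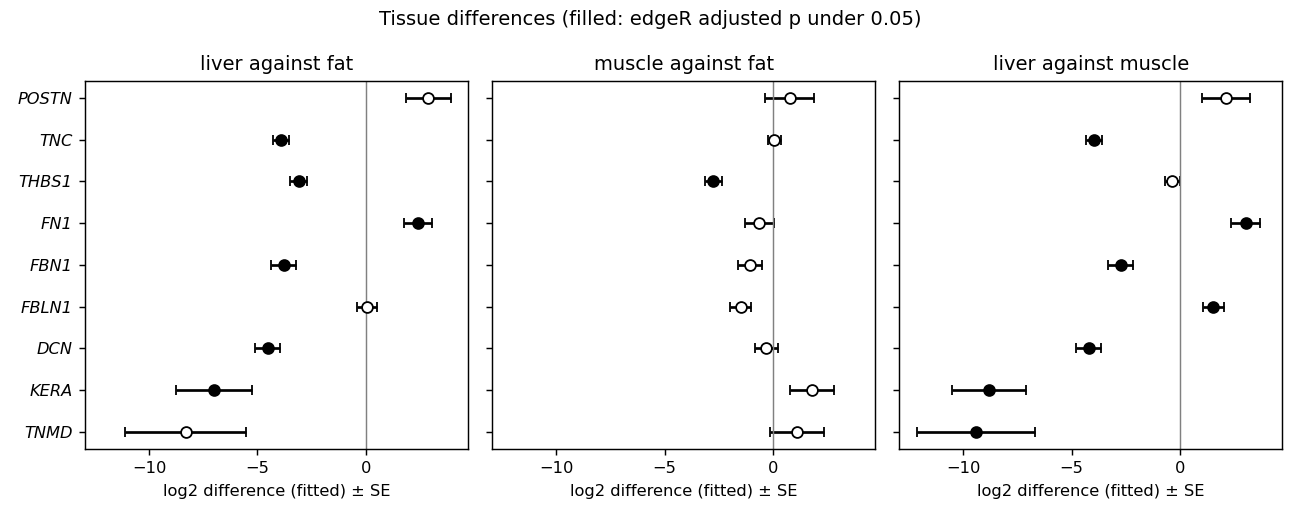
Fitted log2 differences between tissues with SE for the 9 genes, from the edgeR model of tissue and breed over 6 libraries. Filled points passed an adjusted p of 0.05 (6, 1 and 7 of 9 from left to right), and the sizes for KERA and TNMD against liver depend on the fit because liver held 1 and 0 counts.

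Genes of the same families, taken from lists, were read beside the members, which are counted in their lists here. The shares of all genes belong beside each list: 15.2% rose and 13.5% fell in liver against fat. In muscle against fat, 1374 of 13810 genes rose and 6.43% fell. Set against fat, 8 of 11 tested small leucine-rich proteoglycans fell in liver and 0 rose, with a median log2 of -2.97, and 1 fell in muscle. LUM (lumican), which binds collagen fibrils as decorin does, had 412 and 564 CPM in fat, 578 and 245 CPM in muscle and 2.60 and 5.62 CPM in liver. BGN (biglycan) had 391 and 332 CPM in fat and 335 and 193 CPM in liver, and was the one lower in muscle than in fat (log2 -1.69 ± 0.42, edgeR adjusted p 0.037). PODN (podocan) was the one that rose in liver against muscle, at 368 and 352 CPM in liver and 169 and 83.3 CPM in muscle (adjusted p 0.033).

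Of 19 tested microfibril and elastic fibre genes, liver had 13 that fell and 1 that rose against fat, and muscle had 4 that fell and 1 that rose. FBLN2 (fibulin 2) had 179 and 236 CPM in fat and 5.99 and 5.29 CPM in liver, unlike FBLN1. LTBP1, which tethers latent TGF-beta to the matrix, had 171 and 143 CPM in fat and 118 and 102 CPM in liver. For the 21 tested matricellular genes the counts against fat were 9 lower and 3 higher in liver, and 3 lower and 2 higher in muscle. The numbers of higher genes are near the shares over all genes. SPARC had 549 and 488 CPM in fat and 37.1 and 30.8 CPM in liver. TNXB (tenascin X) had 299 and 635 CPM in fat, 225 and 143 CPM in muscle and 7.19 and 7.77 CPM in liver.

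Of 24 tendon and cartilage symbols 21 matched an ID and 15 were tested, and SCX, PRG4 and CLEC3A were not read. Of the 15 tested, KERA and TNMD included, 9 were lower and 1 higher in liver than in fat. In muscle 3 were higher and 1 lower than in fat, with a median log2 of 0.74 for muscle over fat. CILP, a cartilage matrix protein, rose in muscle against fat, with 162 and 157 CPM in muscle and 72.2 and 37.5 CPM in fat (log2 1.63 ± 0.36, edgeR adjusted p 0.026). THBS4, a thrombospondin of muscle and tendon named here after its values were seen, had 205 and 175 CPM in muscle and 7.33 and 22.4 CPM in fat. Fibroblast markers went with these lists: 10 of 11 were lower in liver than in fat and 8 of 11 lower than in muscle, with summed levels of 14658 and 21101 CPM in fat, 22118 and 5272 CPM in muscle and 1284 and 1075 CPM in liver. Their part in the tissue differences was not tested.

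Receptors for these proteins were spread differently. Of 15 tested, liver had 5 higher and 1 lower than fat, and muscle had 1 higher and 1 lower. The muscle counts are near the shares over all genes. ITGB1, the integrin beta chain shared by most fibronectin receptors, lay between 376 and 537 CPM in all 6 libraries. ITGA5, its partner in the classical fibronectin receptor, had 114 and 113 CPM in fat, 57.7 and 78.2 CPM in liver and 55.4 and 23.7 CPM in muscle. CD36 and SDC4 matched no ID and were not read.

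The second question was whether the breeds differ in these genes. Over the 3 tissues, 0 of the 9 members passed in edgeR, where 0.109% of all genes did. At an unadjusted p under 0.05 there were 4 members (TNC, THBS1, KERA and TNMD), lower in the Korean native libraries, against 4.28% of all genes lower at that p. DESeq2 and edgeR without a filter each called 2 members, TNC and THBS1, and limma-voom called 0. Over all genes, these fits called 94, 87 and 12. THBS1 was lower in the Korean native library in 3 of 3 tissues, with a log2 value of -1.92 ± 0.31 (SE, edgeR adjusted p 0.14, DESeq2 adjusted p 1.6e-06). Its edgeR value was -2.14 without Berkshire liver and also -2.14 without Korean native liver. Either way it rests on the same fat and muscle libraries. TNC was also lower in 3 of 3 tissues, at -1.75 ± 0.27 (edgeR adjusted p 0.13, DESeq2 adjusted p 0.0017). KERA gave -3.79 ± 1.03 (edgeR adjusted p 0.44). Its value was -7.06 without Berkshire muscle and -7.09 without Korean native muscle. Either way it rests on the same fat and liver libraries, so these are not separate results. FN1, FBN1 and DCN gave values between -0.06 and 0.17, with SE of 0.43 to 0.53, and in each of them fat and muscle pointed in opposite directions.

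The breeds could not be tested inside a single tissue, which holds 1 library of each, and the intervals that follow cover counting error only. In muscle, each of the 9 members was lower in the Korean native library, with ratios from 1.70-fold for FBN1 to 26.5-fold for POSTN. At least 2-fold apart were 7 of 9, where 10.2% of all genes reaching 5 CPM in either muscle library were as much lower in the Korean native one. TNMD reached 5 CPM only in the Berkshire library. With 5 CPM asked of both libraries, 6 of 8 members were 2-fold lower, where 16.3% of all genes were 2-fold apart in either direction. The median log2 ratio of the members was -1.76, and that of all such genes was 0.05.

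POSTN was 26.5-fold lower in Korean native muscle, with an interval of 21.7 to 32.9. THBS1 was 3.79-fold (3.29 to 4.38), TNC 3.75-fold (2.81 to 5.07), KERA 3.69-fold (2.74 to 5.05), FBLN1 3.41-fold (2.89 to 4.04), TNMD 2.58-fold (1.54 to 4.50) and FN1 2.57-fold (2.46 to 2.67) lower. DCN (2.00-fold, 1.93 to 2.07) fell just short of the limit of 2-fold and FBN1 (1.70-fold, 1.59 to 1.81) below it. Apart from POSTN, the members therefore lay between 1.70-fold and 3.79-fold, and POSTN stood well outside that range.

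Related genes, with the members left out, were lower in Korean native muscle too. Some of these genes stand on several lists. At least 2-fold lower were 9 of 9 small leucine-rich proteoglycans, 11 of 16 matricellular genes, 9 of 12 tendon and cartilage genes and 8 of 16 microfibril and elastic fibre genes. Of all genes, 10.2% were as much lower, and 20.9% were 2-fold apart in either direction. Of these lists, 0 genes were 2-fold higher. FMOD (fibromodulin) had 250 and 81.3 CPM, SPARC 689 and 139 CPM and COL14A1 594 and 174 CPM in Berkshire and Korean native muscle. Markers of other cell types moved in the same direction. Summed fibroblast markers were 4.20-fold lower in Korean native muscle (5 of 11 genes 2-fold lower), summed adipocyte markers 4.44-fold lower (5 of 5 genes, 269 and 60.6 CPM) and summed macrophage markers 2.77-fold lower (5 of 5 genes). The fibroblast sum is mostly COL3A1 (14557 and 2767 CPM) and COL1A2 (4003 and 716 CPM). Without these collagens it was 1.99-fold lower, and the median log2 ratio of the whole list was -0.96. Summed endothelial markers were 1.02-fold lower and summed skeletal muscle markers 1.51-fold higher. Of the smooth muscle and pericyte markers, whose sum in muscle is mostly DES, a gene that skeletal muscle also expresses, 3 of 8 were 2-fold lower. The part of these cell types in the ratios of the members was not tested.

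**Figure D3:**
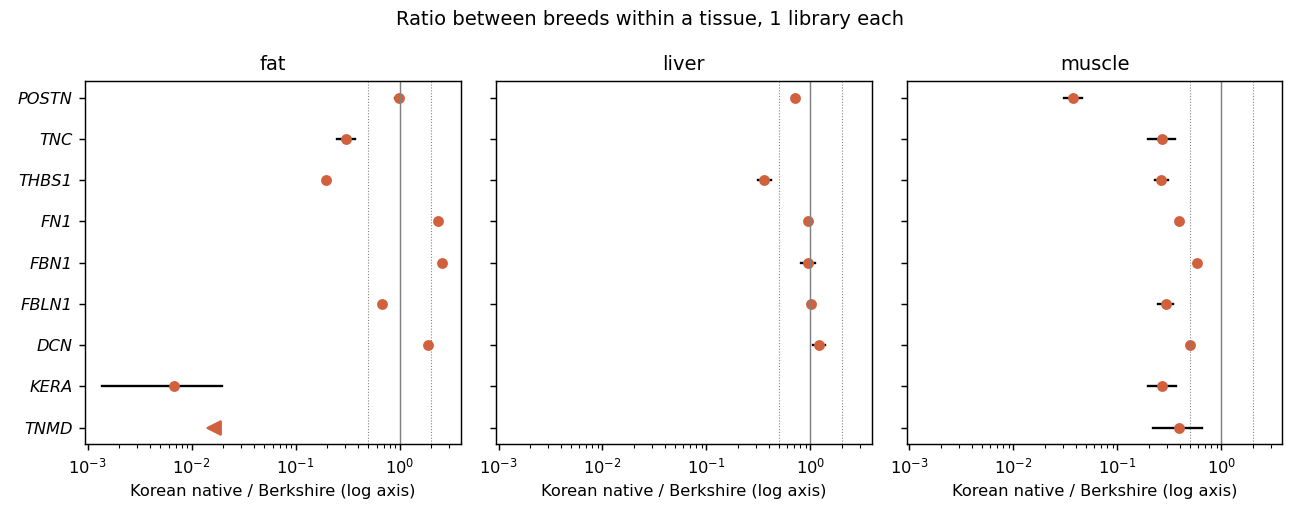
Ratio of Korean native to Berkshire level within each tissue for members reaching 5 CPM in either library, on a log axis with exact counting intervals (95%). The solid line marks equal levels, dotted lines mark 2-fold, and the TNMD arrow in fat is a bound against 3 counts. Muscle points lie left of the solid line for 9 of 9 members, whereas fat holds members on both sides.

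In fat the members parted. FN1 and FBN1 were at least 2-fold higher in the Korean native library and TNC, THBS1, KERA and TNMD at least 2-fold lower. Of all genes reaching 5 CPM in either fat library, 4.67% were that much higher and 3.71% that much lower. KERA and TNMD reached 5 CPM only in the Berkshire library, where they were high. With 5 CPM asked of both libraries, 4 of 7 members were 2-fold apart (2 higher and 2 lower), against 5.27% of all genes. FBN1 was 2.57-fold higher (2.49 to 2.65), FN1 2.36-fold higher (2.31 to 2.42) and DCN 1.88-fold higher (1.84 to 1.93). POSTN had a ratio of 0.985 (0.903 to 1.08), and FBLN1 was 1.47-fold lower (1.38 to 1.56). THBS1 was 5.14-fold lower (4.95 to 5.34) and TNC 3.28-fold lower (2.71 to 3.99).

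The tendon genes showed the widest gap in fat. KERA was 149-fold lower in the Korean native library (50.7 to 725), on 3 counts, and TNMD was at least 60.6-fold lower, on 0 counts against 183. Counts of DCN in the same library gave a reference that does not depend on scaling. DCN itself was 1.88-fold higher in Korean native fat and 2.00-fold lower in Korean native muscle than in the Berkshire libraries. For genes lower in the Korean native libraries, this reference therefore widens the gap in fat and narrows the gap in muscle. KERA had 34.5 counts per 1000 DCN counts in Berkshire fat (31.3 to 37.9) and 0.123 in Korean native fat (0.0253 to 0.359). In muscle the values were 23.5 (20.7 to 26.6) and 12.7 (9.56 to 16.7). TNMD had 14.0 per 1000 DCN counts in Berkshire fat, 0 in Korean native fat (up to 0.151), and 6.09 and 4.72 in muscle. Measured this way, the muscle libraries differed by less than 2-fold in both genes, and Korean native fat stood apart from Berkshire fat and from both muscle libraries.

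TNC followed the same order at 35.2 and 5.69 per 1000 DCN counts in fat and 25.7 and 13.7 in muscle. THBS1 had 1228 and 127 in fat and 104 and 54.7 in muscle. POSTN had 79.7 and 41.7 in fat, and 301 and 22.7 in muscle, where its gap remained the widest of the members.

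Tendon and cartilage genes in fat were mixed. With KERA and TNMD left out, 5 of 10 were at least 2-fold lower and 2 at least 2-fold higher in the Korean native library, with a median log2 ratio of -1.15 against 0.02 over all genes. COL12A1, a collagen of tendon and fascia, had 544 CPM in Berkshire and 118 CPM in Korean native fat, and FMOD had 396 and 89.4 CPM, whereas COL14A1 had 615 and 726 CPM. Again without the members, 3 of 15 matricellular genes were 2-fold lower and 2 higher, 3 of 9 proteoglycans lower and 0 higher, and 1 of 16 microfibril genes lower and 3 higher. Fibroblast markers were 1.44-fold higher in sum in Korean native fat (1 of 11 genes 2-fold higher), macrophage markers 1.94-fold higher and adipocyte markers 1.82-fold lower. Skeletal muscle markers summed to 87.0 CPM in Berkshire and 109 CPM in Korean native fat. Which depot or how much adjoining connective tissue a fat sample held is not given in the labels, and its part was not tested.

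In liver the breeds lay closer. Of the 6 members with at least 5 CPM, THBS1 was the one at least 2-fold apart, 2.78-fold lower in the Korean native library (2.42 to 3.20), where 5.74% of all such genes were that much lower. POSTN was 1.42-fold lower (1.36 to 1.48), DCN 1.20-fold higher (1.05 to 1.38), and FN1, FBN1 and FBLN1 were within 1.06-fold. TNC was 2.82-fold lower on 14 and 6 counts (1.02 to 8.94).

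**Figure D4:**
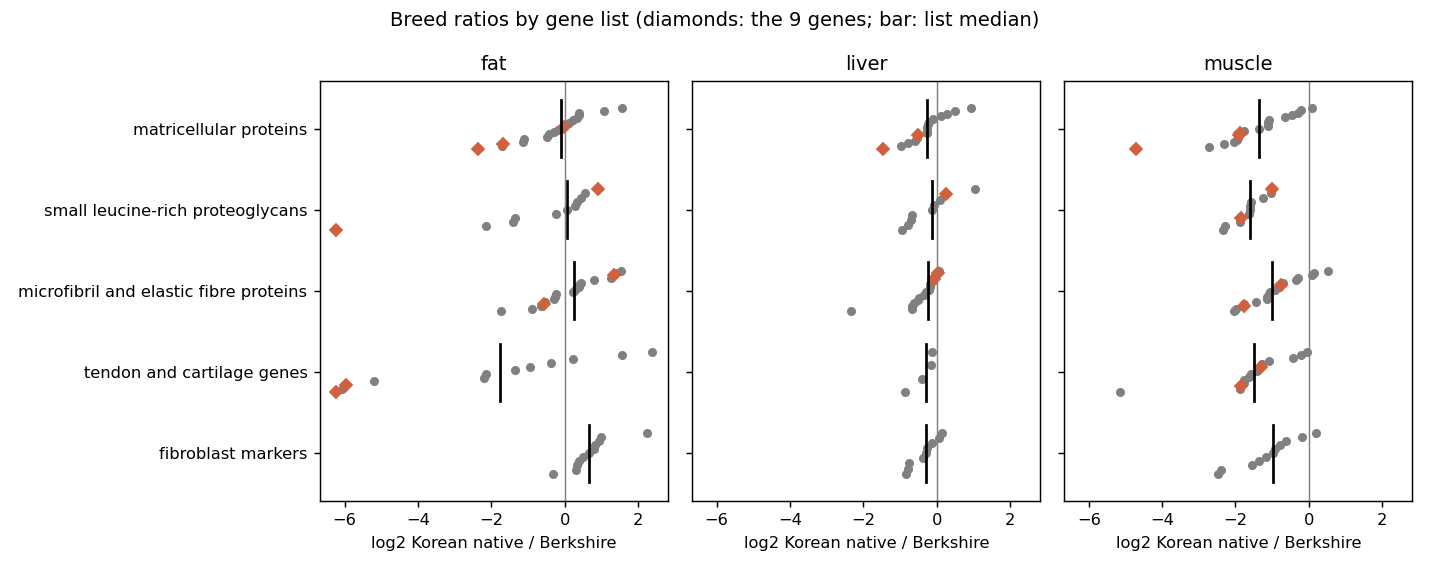
Log2 ratio of Korean native to Berkshire level within each tissue, for genes of 5 lists that reach 5 CPM in either library. Each point is a gene, diamonds are members, and bars are list medians. In muscle the medians of the 4 matrix lists lie between -1.61 and -0.99, and in fat the tendon and cartilage list has its median at -1.75.

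The genes most like each member were sought among 9007 others with a symbol, by the root mean square difference of centred log2 levels over the 6 libraries. KERA and TNMD were among the closest 3 of each other (0.63), and both had COL11A1 and COL11A2, chains of a fibrillar collagen of cartilage and tendon, as the rest. COL11A2 had 17.6 and 0.197 CPM in fat and 9.13 and 2.30 CPM in muscle, next to TNMD at a difference of 0.41. DCN was closest to PENK (proenkephalin, 0.16), GXYLT2 and ANGPTL2. FBN1 was closest to NOVA1 (0.20), CPXM1 and CD109, and FBLN1 to PLOD3 (a collagen lysyl hydroxylase, 0.19), PTGS2 and ORMDL2.

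THBS1 was closest to F3 (tissue factor, 0.39), LAMC3 and AIFM3, TNC to GALNT18 (0.46), CA4 and GALNT15, and FN1 to CDH7 (0.20), ALCAM and GUSB. POSTN was closest to HPGD (0.71), TCF7 and MPZL2. These values describe 6 libraries and are no test. Several of the genes lay near the floor in some libraries, such as CDH7 (0 CPM in Korean native muscle) and PENK and GXYLT2 (0 CPM in Berkshire liver). Their closeness depends in part on the 0.5 CPM added before the log.

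DCN, LUM, KERA and EPYC stand next to each other in this order in the RefSeq annotation of Sscrofa11.1, whose coordinates are not those of the counts. Their ratios between breeds differed in fat. There, DCN and LUM were higher in the Korean native than in the Berkshire library (LUM at 564 and 412 CPM), KERA was 149-fold lower, and EPYC (epiphycan, a cartilage proteoglycan) had 1.27 CPM in Berkshire and 0 counts in Korean native fat. In muscle, DCN, LUM and KERA were each lower in the Korean native library.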

How the data were processed

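The authors deposited unnormalized read counts for each Ensembl gene ID in 6 libraries. Per the submitters' processing notes, TopHat, HTSeq 0.5.3p3 and the Sscrofa10.2 build were used. Strand setting, counting mode and annotation release: not given in the sources used here. Reads of overlapping and antisense genes cannot be told apart. Per the labels' protocols, frozen tissue was extracted with Trizol and made into TruSeq libraries.

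The 5 closing entries that name no gene, mainly reads outside genes (45.9% to 52.5%) and reads aligned to several places (14.1% to 20.8%), were left out of library sizes. Symbols came from a supplied table that matched 11804 of 25322 IDs. List genes without a match, such as SCX, OGN, COL1A1, THY1 and DPT, were not read. No sequence of the members was used here.

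edgeR 4.0.16 in R 4.3.3 was fitted with tissue and breed over 6 libraries (2 residual degrees of freedom) after filterByExpr, which kept 13810 genes. TMM factors, the two-sided quasi-likelihood test and a Benjamini-Hochberg adjusted p of 0.05 were used. The common biological coefficient of variation was 29.5%. SE were derived as |log2| divided by the root of the F statistic. Within a tissue, ratios of scaled counts carry exact conditional binomial intervals, and a gene counted as apart at 2-fold (log2 with a prior count of 2) with at least 5 CPM in 1 library. Likeness used log2(CPM + 0.5) for genes with a mean of at least 1 CPM. The alternatives were DESeq2 1.42.0, limma-voom (limma 3.58.1), other scalings, no filter, no second factor and leaving out each library. The fit was tested on simulated counts.

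The members and gene lists were chosen with earlier results of these data known. Genes named from a list are its 4 most abundant apart from members, plus the 3 genes most like each member, and exceptions are marked. Beside these, EPYC, TGFB1, THBS4 and VTN were named after their values were seen.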

Additional observations from a re-analysis of the deposited data

Results flagged for a closer look

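In 3 genes the ratio between breeds pointed in opposite directions in different tissues, with counting intervals that exclude equal levels on both sides. With 1 library for each breed and tissue the difference was not tested. The ratio of Korean native to Berkshire level was 2.36 in fat for FN1, against 0.951 in liver and 0.390 in muscle. For FBN1 it was 2.57 in fat and 0.589 in muscle. For DCN it was 1.88 in fat and 1.20 in liver, against 0.50 in muscle. Summed fibroblast markers had ratios of 1.44 in fat, 0.837 in liver and 0.238 in muscle, or 1.66, 0.798 and 0.503 without COL3A1 and COL1A2, and their part was not tested.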

How the results depend on the processing

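With DESeq2 size factors in edgeR the same counts of members were called as with TMM in each comparison (6, 1, 7 and 0). Total-count scaling shifted the median of all genes from 0.06 to -0.94 between liver and fat and from -0.05 to -0.98 between muscle and fat (log2), and 1158 genes were then higher and 5796 lower in liver than in fat, against 2100 and 1859. For muscle against fat, total counts called 3 members, but also 6013 of 13810 genes, against 2262 with TMM. DESeq2 called 2 members and 2724 genes, and limma-voom 2 members and 2502 genes. Without a filter 2 members and 2755 of 18959 genes were called, and without the breed term 0 members and 2067 genes. For the breeds over tissues, DESeq2 called 2 members among 94 genes and the fit without a filter 2 among 87, against 0 among 15 in the main fit. The number of members called also changed in each comparison with the library that was left out. The value of POSTN for muscle against fat turned to -2.17 without Berkshire muscle and was 2.41 without Korean native muscle, and no other called value of a member changed sign. A 4-fold limit within a tissue left 3 members in fat, 0 in liver and 1 in muscle, where 1.70%, 2.76% and 3.17% of all genes were that far apart. A minimum of 1 CPM gave 2 of 7 in liver, against 14.9% of all genes. A minimum of 5 CPM in both libraries gave 4 of 7 in fat, 1 of 6 in liver and 6 of 8 in muscle. In muscle, 9 members were 2-fold apart with total counts, against 7, where 22.5% and 20.9% of all genes were. No paired analysis was possible because each breed and tissue has 1 library, and the breed term takes the place of a block. Where not stated otherwise, the cause of a change was not tested. Depth limits KERA and TNMD in liver and in Korean native fat, where 0 to 3 counts were seen.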

Other observations

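Genes of TGF-beta signalling, which is known to raise many matrix genes, were read beside the members. Of 15 tested, 6 were lower in liver than in fat and 2 lower in muscle than in fat, 0 were higher in either, and 0 passed between the breeds. Of all genes, 13.5% were lower in liver and 6.43% lower in muscle than in fat, and 0.109% passed between the breeds. TGFBR3 (betaglycan, a co-receptor) had 118 CPM in Berkshire and 191 CPM in Korean native fat, and, in the same breed order, 34.1 and 20.5 CPM in liver and 74.4 and 38.0 CPM in muscle. TGFB1 itself lay between 16.4 and 36.6 CPM in the 6 libraries.

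VTN (vitronectin), an adhesive plasma protein on the matricellular list that was named after its values were seen, had 463 and 235 CPM in liver and at most 0.684 CPM in the other 4 libraries. Like FN1 and POSTN it was highest in liver.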
